A study of Mus musculus with 12 samples.

Results

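The genes described here encode proteins of the mitochondrial ribosome. They were taken as all protein-coding genes of the GRCm38 RefSeq gene table whose symbol is Mrpl (large subunit) or Mrps (small subunit) followed by a digit. This gave 78 of 21887 protein-coding genes on chromosomes 1 to 19, X and Y, with 49 for the large and 29 for the small subunit. USF2 was precipitated from wild-type mouse embryonic fibroblasts (MEFs) and the bound DNA was sequenced (ChIP-seq). The cells were either kept in normal culture or deprived of glucose, and each condition had 2 libraries, called normal 1, normal 2, starved 1 and starved 2. The labels give neither the origin of the MEF line nor the length of starvation nor separate cultures, so the spread between libraries of a condition may be technical, and peak lists hold no markers of cell identity. A list called a gene if the summit of a peak, its highest point, lay within 1000 bp of either end of the annotated span, and such a peak is a gene-end peak. The family was chosen by its share of calls in these same 4 lists, so the counts of calls are a description, without a test.

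Mitochondria translate the few proteins encoded in their own genome, all of them subunits of the respiratory chain and the ATP synthase, on ribosomes of their own. The proteins of these ribosomes are encoded in the nucleus, made in the cytosol and imported. One part of them has counterparts in the bacterial ribosome and keeps the bacterial number, while the other part was added in the mitochondrial lineage. USF2 is a basic helix-loop-helix leucine zipper transcription factor that binds the E-box CACGTG, often close to transcription start sites. The symbol rule also takes in Mrps36, a gene whose product is now assigned to the 2-oxoglutarate dehydrogenase complex. It leaves out ribosomal proteins with other names, such as Dap3.

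Normal 1 and normal 2 held 1645 and 2124 peaks, and starved 1 and starved 2 held 825 and 1178, counted on the assembled nuclear chromosomes (the starved 2 list has 1186 in all). The narrowest normal peak was 152 bp wide and the narrowest starved peak 306 bp. The lowest background density was 644.0 and 644.1 reads per Mb for normal 1 and normal 2, while the starved libraries had 428.4 and 434.1. Peak width and this background density therefore differed between the conditions, and their part in the calls was not tested. Library depth itself was not measured. Fold enrichment, the authors' ratio of summit reads to local background with 1 added to each, was compared only within its own list. A missing call means that no peak passed the caller's threshold there and is no measurement of absent binding.

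The promoters on which the account of E-boxes turns are shown first. RefSeq promoter entries of GRCm38.p6, which span 250 bases before to 50 after a start site, matched 69 of the 78 genes. The runs below are the 250 bases before the start site, 5′ to 3′ on the strand of the gene, which is the plus strand for all 6. Capitals mark each E-box CACGTG and each CCGGAA or its reverse complement TTCCGG, the core recognised by ETS factors such as GABP. The first 4 promoters carry an E-box, and Mrps31 and Mrpl3 are shown as called genes without one. Pnpla7 is the neighbour at whose start the peak near Mrpl41 lay, and Mrpl36 lay just outside the rule. Their positions are chr5:100798509-100798758 for Mrps18c, chr17:46645971-46646220 for Mrpl2, chr2:24975783-24976032 for Pnpla7, chr13:73330759-73331008 for Mrpl36, chr8:22411090-22411339 for Mrps31 and chr9:105053018-105053267 for Mrpl3.
Mrps18c: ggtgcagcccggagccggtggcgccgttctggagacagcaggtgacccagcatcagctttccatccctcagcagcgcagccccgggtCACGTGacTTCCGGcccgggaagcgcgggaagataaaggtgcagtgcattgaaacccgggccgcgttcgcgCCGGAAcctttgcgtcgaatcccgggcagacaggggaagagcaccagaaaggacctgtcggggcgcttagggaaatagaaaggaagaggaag
Mrpl2: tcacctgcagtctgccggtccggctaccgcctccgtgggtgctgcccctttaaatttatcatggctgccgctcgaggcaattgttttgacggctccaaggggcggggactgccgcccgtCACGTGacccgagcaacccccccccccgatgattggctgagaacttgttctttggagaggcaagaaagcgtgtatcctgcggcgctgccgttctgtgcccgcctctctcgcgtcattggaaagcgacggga
Pnpla7: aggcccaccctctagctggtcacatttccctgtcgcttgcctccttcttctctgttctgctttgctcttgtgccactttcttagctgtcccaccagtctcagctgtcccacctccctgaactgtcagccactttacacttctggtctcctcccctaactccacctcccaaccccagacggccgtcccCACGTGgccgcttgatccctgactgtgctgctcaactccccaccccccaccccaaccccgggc
Mrpl36: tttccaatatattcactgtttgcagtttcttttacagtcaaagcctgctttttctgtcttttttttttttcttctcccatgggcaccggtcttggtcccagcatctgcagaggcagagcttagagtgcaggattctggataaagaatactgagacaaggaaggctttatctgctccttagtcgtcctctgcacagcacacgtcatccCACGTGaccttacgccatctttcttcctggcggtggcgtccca
Mrps31: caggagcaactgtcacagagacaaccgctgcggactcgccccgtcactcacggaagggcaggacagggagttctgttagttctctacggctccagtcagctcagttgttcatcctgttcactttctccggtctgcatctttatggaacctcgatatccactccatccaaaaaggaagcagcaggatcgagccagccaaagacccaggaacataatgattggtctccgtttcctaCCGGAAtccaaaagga
Mrpl3: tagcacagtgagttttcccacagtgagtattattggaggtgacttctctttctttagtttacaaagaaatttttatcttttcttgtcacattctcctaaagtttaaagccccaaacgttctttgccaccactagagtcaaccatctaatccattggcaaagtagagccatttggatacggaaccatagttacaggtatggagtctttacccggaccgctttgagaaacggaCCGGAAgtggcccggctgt

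Altogether 12 of the 78 genes (15.4%) were called in at least 1 list, against 4.01% of the 21809 other protein-coding genes. Both normal lists called 8 genes (10.3%, against 2.16% of other genes), both starved lists called 4 (5.13%, against 1.77%) and all 4 lists called 3 (3.85%, against 1.12%). List by list, normal 1 called 8 (against 2.52% of other genes), normal 2 called 12 (against 2.64%), starved 1 called 4 (against 2.0%) and starved 2 called 6 (against 2.28%). The share was thus above that of other genes in each list, and each normal list called more of these genes than either starved list. A call in at least 1 starved list was found for 4 (50%) of the 8 genes with calls in both normal lists, against 61.9% of the 472 other genes with such calls. A pattern of normal 2 alone was found for Mrpl30 and Mrpl13. The remaining 66 genes had no gene-end peak, and 61 of them had no summit within 5000 bp in any list.

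**Figure D1:**
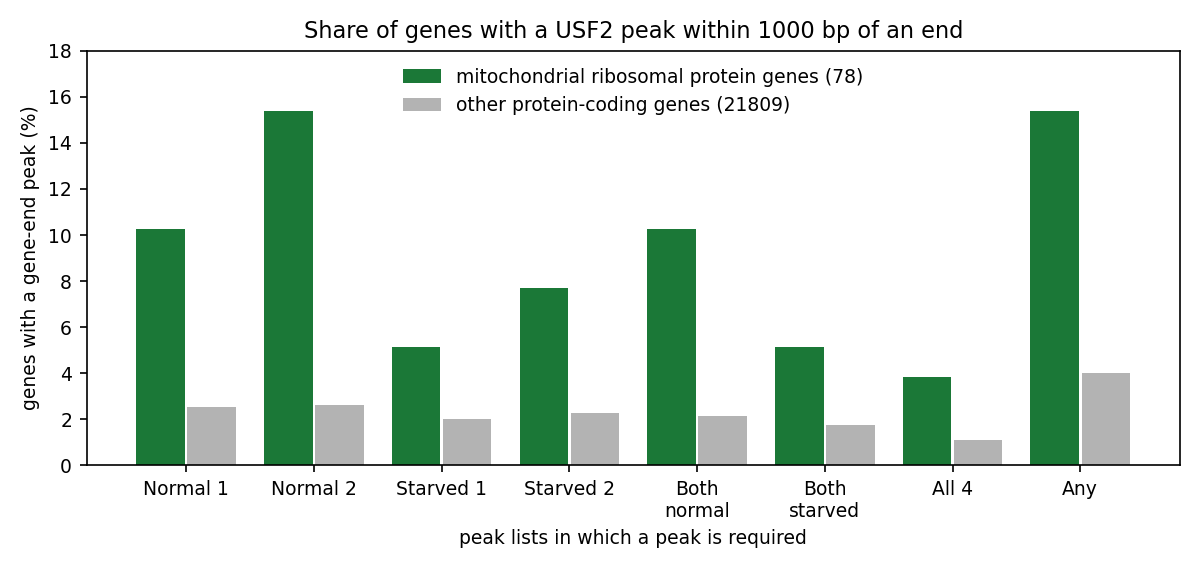
Share of genes with a USF2 peak summit within 1000 bp of either end (vertical axis, percent), for 78 mitochondrial ribosomal protein genes (green) and 21809 other protein-coding genes (grey). The horizontal axis gives the list or lists in which a peak is required; the green bars lie between 3.85% and 15.4% and the grey bars between 1.12% and 4.01%.

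Small-subunit genes held 2 of the 12 called genes. Mrps18c encodes 1 of the paralogous S18 proteins of the mitochondrial ribosome, and it had the strongest peak among the genes of the family in the normal lists. Its fold enrichment was 15.4 in normal 1, 16.2 in normal 2 and 5.67 in starved 2, and starved 1 had no call. Within the normal lists it exceeded 91.7% and 93.6% of gene-end peaks, and in starved 2 it exceeded 26.9%. The recovered number of reads at the summit was 19 (95% exact Poisson interval 11.4 to 29.7), 20 (12.2 to 30.9) and 9 (4.12 to 17.1), where the intervals cover counting error only. The summits lay 170, 178 and 154 bp before the Mrps18c start site, and 7, 15 and 4 bp from the E-box shown above. That E-box begins 163 bases before the Mrps18c start and 1 base before the start of Helq, a DNA helicase gene on the opposite strand. The summits were nearer to Helq (72, 80 and 56 bp from its end), so the peak cannot be assigned to Mrps18c alone.

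Mrps31, a small-subunit protein without a bacterial counterpart, was called in all 4 lists. Its fold enrichment was 6.84 in both normal lists, 11.7 in starved 1 and 11.1 in starved 2. In the normal lists it exceeded 39.9% and 40.6% of gene-end peaks, but 85.8% and 86.1% in the starved lists. It thus stood in the middle of the normal lists and high in the starved lists, which differ in length and width, so this position is no measure of a change. The recovered reads at the summit were 16, 16, 18 and 20. The summits lay between 857 and 910 bp from the beginning of the annotated span, yet within 34 bp of the start site of the promoter entry (19 bp after it in normal 1 and 18, 18 and 34 bp before it in the other lists). No other protein-coding gene had an end within 1000 bp.

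Among large-subunit genes with a bacterial number, Mrpl2 had the highest fold enrichment of the family in starved 1. Its protein lies at the core of the large subunit close to the peptidyl transferase centre. The fold enrichment was 8.53 in normal 1, 6.52 in normal 2, 14.7 in starved 1 and 10.8 in starved 2, above 64.5%, 37.3%, 94.3% and 85.6% of the gene-end peaks of each list. The normal peaks were 209 and 192 bp wide and the starved peaks 852 and 795 bp. Of 3 annotated start sites the nearest to each summit was used: the normal summits lay 189 and 185 bp and the starved 1 summit 219 bp after the last of them, and the starved 2 summit lay 68 bp before the first. The E-box shown above lay inside both starved peaks, 361 and 58 bp from their summits, and outside both normal peaks, 331 and 327 bp from their summits. Klc4, a kinesin light chain gene on the opposite strand, starts 15 bases from that E-box and has an end 237, 233, 267 and 36 bp from the summits.

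Mrpl21 was the third gene called in all 4 lists. Its fold enrichment was 4.32, 4.67, 6.89 and 5.13 in the order of the lists, above 3.27%, 7.99%, 46.7% and 14.4% of their gene-end peaks. It thus stood low in both normal lists and in starved 2 and near the middle of starved 1. Each summit rested on 10 to 12 reads. The summits lay 59, 62, 125 and 73 bp before its start site, in a region shared with Ighmbp2, a helicase gene that starts on the opposite strand 27 to 93 bp from the summits. Neither promoter entry holds CACGTG.

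Mrpl1, a protein of the stalk where spent tRNA leaves the ribosome, was the only gene called in both starved lists and in 1 normal list. Its fold enrichment was 6.35 in normal 2, 6.57 in starved 1 and 6.73 in starved 2, above 33.8%, 39.9% and 47.7% of gene-end peaks. The summits lay 8, 29 and 104 bp before the start site, on 11, 8 and 10 reads, and no other gene end was within 1000 bp. Both starved peaks began at the same base, chr5:96209902-96210207 and chr5:96209902-96210271. An identical edge was found for 21.7% of the 543 starved 1 peaks that overlap a starved 2 peak.

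Mrpl3 and Mrpl27 were called in both normal lists and in neither starved list. For Mrpl3 the fold enrichment was 9.25 and 10.8, above 68.4% and 80.3% of gene-end peaks, with summits 32 and 34 bp before its start site. It had no neighbour within 1000 bp and no E-box in its promoter entry. Mrpl27, whose bacterial counterpart reaches into the peptidyl transferase centre, had 6.17 in both lists, on 7 reads each (95% exact Poisson interval 2.81 to 14.4). Its summits lay 133 and 138 bp after its start site, inside the gene and nearer to an end of Eme1 (88 and 93 bp), which encodes a subunit of a structure-specific endonuclease. An E-box lay 51 and 46 bp from these summits. It is part of the Eme1 promoter entry and is shown with its flanks on the minus strand, the strand of Eme1 (chr11:94653963-94653992).
Eme1: cccacaacgtgtCACGTGaccggagacagt

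Mrpl30 and Mrpl13 were called in normal 2 alone. Mrpl30 had a fold enrichment of 5.46 on 5 reads, 85 bp after its start site and 113 bp from an end of Mitd1. Mrpl13 had 5.65 on 8 reads, 39 bp from its end and 53 bp from an end of Mtbp. These were weak peaks, above 17.6% (Mrpl30) and 21.7% (Mrpl13) of the gene-end peaks of that list. Mitd1 acts in the last step of cell division, and Mtbp encodes an MDM2-binding protein.

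The called large-subunit genes without a bacterial counterpart were Mrpl39, Mrpl41 and Mrpl44. Mrpl44, a protein with a ribonuclease III-like fold, had a fold enrichment of 8.16 in normal 1 and 7.53 in normal 2, above 59.3% and 49.4% of gene-end peaks, and no call in the starved lists. Both peaks began at chr1:79776000 and had the same summit, 72 bp after the start site and 53 bp from an end of Wdfy1, an endosomal protein gene. An identical edge was found for 44.7% of the 1053 normal 1 peaks that overlap a normal 2 peak. Of the 8 genes called in both normal lists it was found for 1, Mrpl44. At these 8 genes except Mrpl39 (1.19 and 0.632 reads), the recovered local background was nearly equal in both normal lists, as for Mrps31 (1.484 in each). At the 4 genes called in both starved lists it differed, as for Mrps31 (0.617 and 0.889). Whether the normal lists share a background was not tested, and their calls may not be independent. Mrpl39 had 5.03 and 5.52 in the normal lists, 29 bp before and 43 bp after its start site, with no neighbour within 1000 bp. Mrpl41 entered by the rule from afar: its summits, with fold enrichments of 6.84 in normal 2 and 5.34 in starved 2, lay 929 and 1000 bp before its start. They lay 6 bp before and 65 bp after the start of Pnpla7, a lysophospholipase gene.

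**Figure D2:**
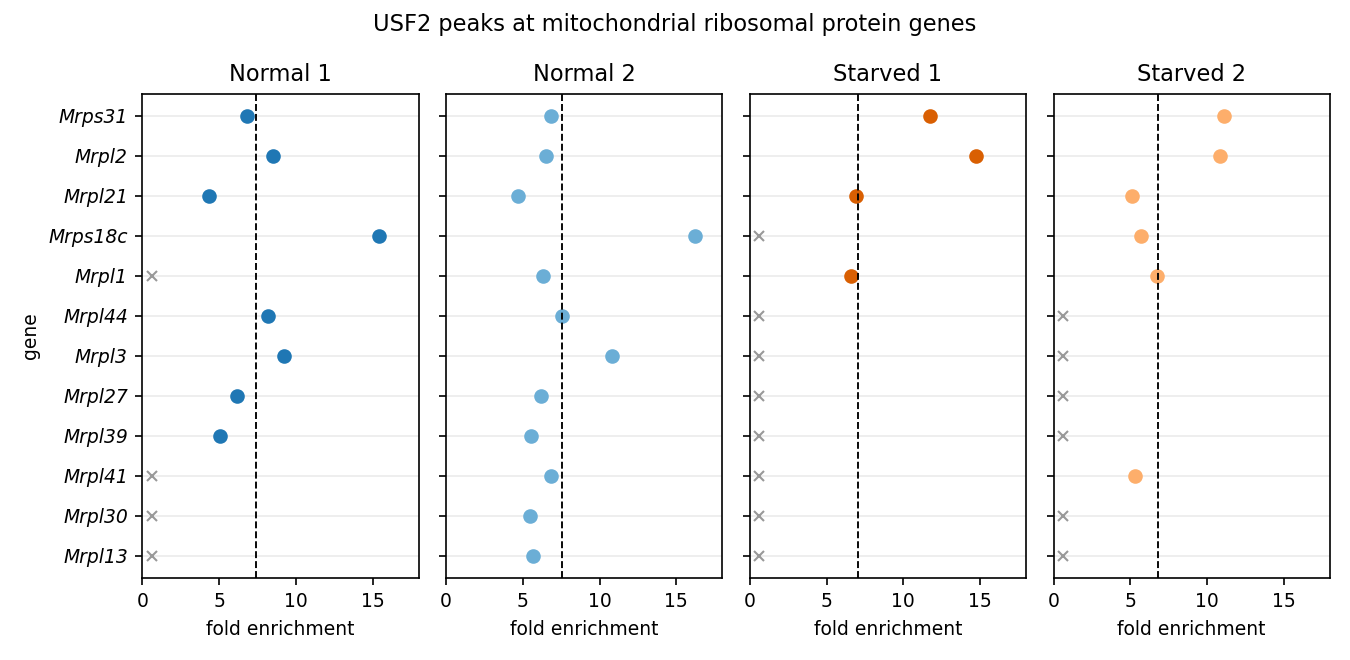
Fold enrichment (horizontal axis, a linear ratio by the authors' peak caller) of the gene-end peak of each of 12 genes (vertical axis) in the 4 lists, 1 panel each; grey crosses at the left edge mark genes without a call. Dashed lines are the median of all gene-end peaks of the list (7.41, 7.53, 7.03 and 6.81). Mrps18c and Mrpl3 lie above it in both normal lists, Mrpl44 and Mrpl2 also in normal 1, and Mrps31 and Mrpl2 in both starved lists.

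By subunit, 10 of 49 large-subunit and 2 of 29 small-subunit genes were called in any list, and 6 and 2 in both normal lists. Both starved lists called 3 and 1, and all 4 lists called 2 and 1. By number, 8 of 44 genes with a bacterial number (up to 36 in the large and 21 in the small subunit) and 4 of 34 others were called in any list. Other protein-coding genes had shares of 4.01% in any list, 2.16% in both normal, 1.77% in both starved and 1.12% in all 4 lists. These splits rest on few called genes and were not tested. The median fold enrichment of the called genes was 7.50 in normal 1, 6.44 in normal 2, 9.32 in starved 1 and 6.20 in starved 2. All gene-end peaks of these lists had medians of 7.41, 7.53, 7.03 and 6.81, so the family lay below the list's median in normal 2 and starved 2 and above it in the other lists. The best ranks by q-value in the lists were 54 and 46 for Mrps18c, 24 for Mrpl2 in starved 1 and 57 for Mrpl2 in starved 2.

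Most summits of the family lay close to a start site. No such distances were taken for gene-end peaks of other genes, and the rule itself required a summit within 1000 bp of a gene end. Of 30 peaks at these genes, 29 could be placed against a start site of the gene, and 17 lay within 100 bp and 26 within 200 bp of it, with a median distance of 72 bp. The 2 peaks beyond 500 bp were those of Mrpl41. In 8 of the 12 genes another protein-coding gene had an end within 1000 bp of the summit, and Mrpl1, Mrps31, Mrpl3 and Mrpl39 had none. A setting chosen after the data were seen kept a call only where no other gene end was nearer to the summit. It left 4 genes in both normal lists, Mrps31, Mrpl3, Mrpl39 and Mrpl21 (5.13%, against 1.74% of other genes). By start sites, though, Ighmbp2 was nearer to the normal summits of Mrpl21 (27 and 30 bp) than Mrpl21 itself (59 and 62 bp). Of all 78 genes, 44 (56.4%) had another protein-coding gene end within 1000 bp of their own, against 24.7% of other genes. Among genes with such a neighbour, 11.4% of the family and 4.33% of other genes were called in both normal lists, and among genes without one, 8.82% and 1.45%. Which genes are active in these cells was not measured in these lists, and the other protein-coding genes include many tissue-specific ones.

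**Figure D3:**
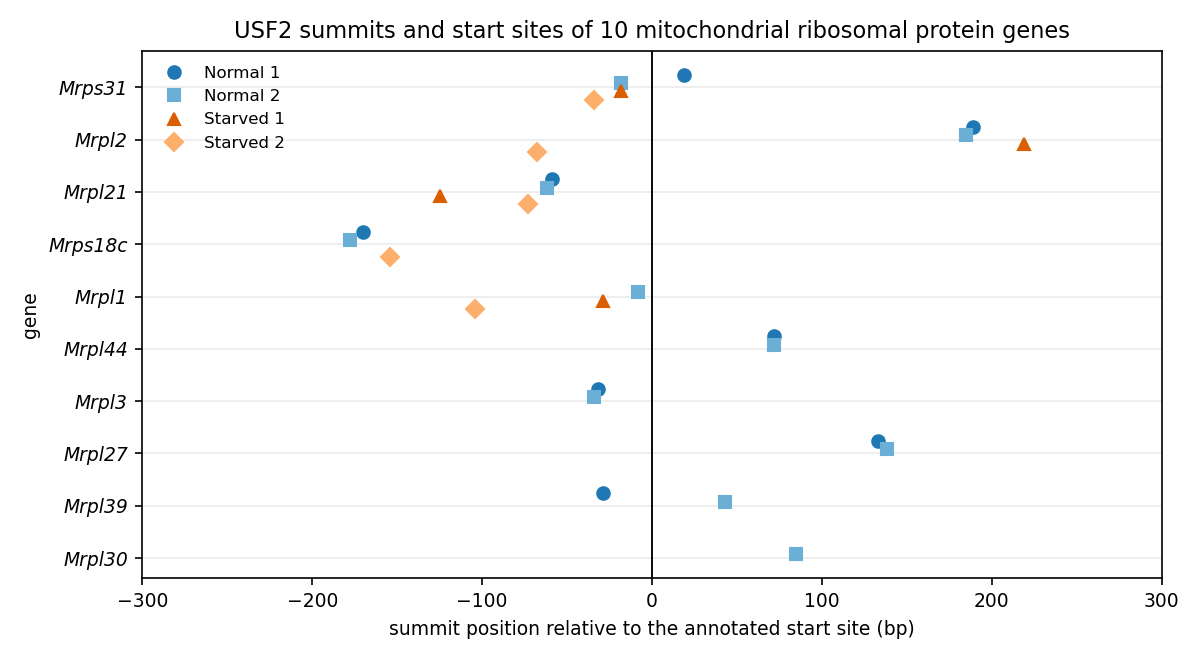
Position of the peak summit relative to the nearest annotated start site of the gene (horizontal axis, bp; negative values lie before the start) for 10 genes (vertical axis) with 1 symbol per list. Mrpl41 (929 and 1000 bp before its start) and Mrpl13 (no promoter entry) are not drawn; the summits of Mrps18c lie 154 to 178 bp before and those of Mrpl27 133 and 138 bp after the start.

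CACGTG was in few of the called promoters. Of the 11 called genes with a promoter entry, 2 had CACGTG in it (Mrps18c and Mrpl2), against 342 of 710 other called genes (48.2%). Over all genes, called or not, the share was 5 of 69 (7.25%) in the family and 8.92% of 17423 others. The same was seen at summits that lay inside a promoter entry of any protein-coding gene. CACGTG lay within 50 bp of such a summit at 1 of 6, 3 of 9, 0 of 3 and 1 of 5 peaks of the family in normal 1, normal 2, starved 1 and starved 2, and at 66.3%, 62.7%, 76.1% and 70.2% of other peaks. The peaks with an E-box this close were those of Mrps18c and, in normal 2, also those of Mrpl41 at the Pnpla7 start and of Mrpl27. The Pnpla7 promoter entry holds 2 E-boxes, 63 bases before and 24 bases after its start. The second, beyond the run printed above, was the nearer to the Mrpl41 summits in normal 2 and starved 2. The starved 2 peak of Mrpl41 had an E-box 36 bp from its summit. It was not counted because that summit lay outside a promoter entry. The looser E-box CANNTG, which includes CACGTG, was in 8 of 11 called genes, against 81.5% of other called genes, and CATGTG or CACATG in 0 of 11, against 14.6%. Motifs were searched on both strands, and a match or its absence in a window is a description of its letters. Bases outside promoter entries were not read, so an E-box within 50 bp of a summit but beyond an entry would be missed.

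The ETS core CCGGAA or TTCCGG, chosen after the sequences had been seen, stood in the promoter entry of 10 of the 11 called genes. It was in 30 of 58 uncalled genes of the family (51.7%), in 252 of 710 other called genes (35.5%) and in 20.1% of other uncalled genes. Mrpl41 was the called gene without it. Its first letter lay 19 bases before the start of Mrpl3, 16 before that of Mrps31 and 36 before that of Mrpl39, as the capitals near the end of the Mrpl3 and Mrps31 runs show. In Mrpl1, Mrpl21 and Mrpl44 it began 34, 8 and 43 bases after the start. Among called genes without CACGTG the count was 8 of 9 in the family and 135 of 368 (36.7%) elsewhere.

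**Figure D4:**
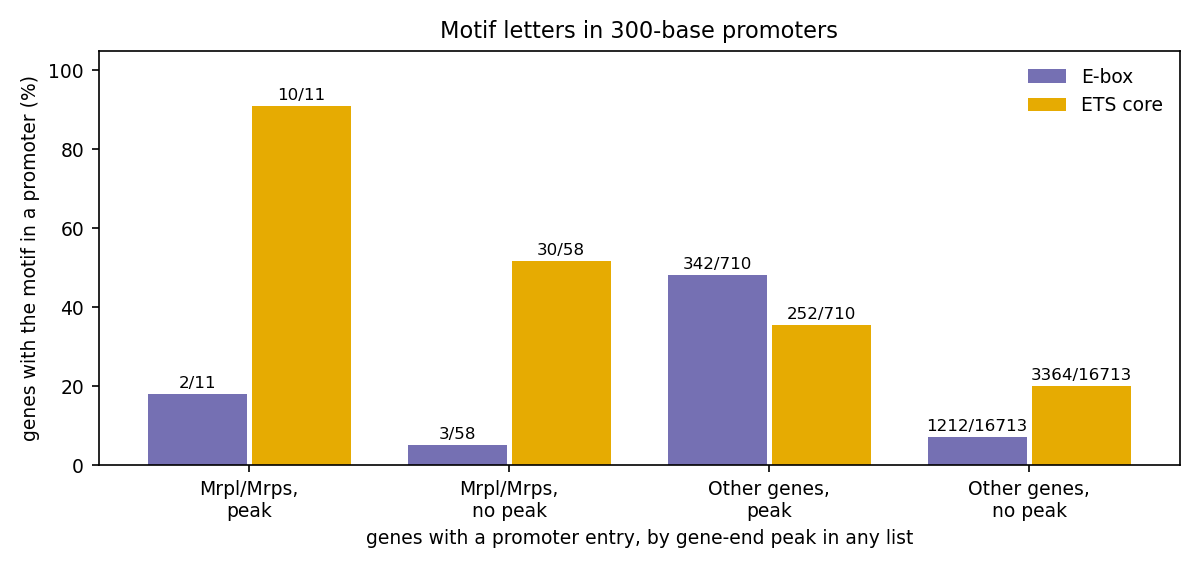
Share of genes with motif letters in a promoter entry of 300 bases (vertical axis, percent; counts above the bars) for the E-box CACGTG (violet) and the ETS core CCGGAA or TTCCGG (yellow), by family and by a gene-end peak in any list (horizontal axis). The E-box is in 2 of 11 called genes of the family and 342 of 710 other called genes, the ETS core in 10 of 11 and 252 of 710.

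Just outside the rule were 5 uncalled genes with a summit between 1000 and 5000 bp from an end. The nearest was Mrpl36 (starved 1, fold enrichment 5.21 on 5 reads, chr13:73330870-73331175), whose summit lay 1156 bp from a gene end but 13 bp after its start site and 51 bp from the E-box shown above. The called gene closest to the threshold was Mrpl41 at 1000 bp in starved 2. The others were Mrpl35 (1737 bp, normal 2, 5.16), Mrps35 (3387 bp, normal 1, 4.35) and Mrpl42 (4923 bp, normal 2, 5.91), each inside the gene, and Mrpl20 (4932 bp, both normal lists, 3.86), inside Ccnl2. With start sites alone in place of both gene ends, 12 of 69 genes were called in any list, with Mrpl36 added and Mrpl13, which has no promoter entry, lost.

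Other genes of mitochondrial gene expression, taken from lists by function, are described next. No call was found for the 5 ribosomal proteins with other names (Dap3, Ptcd3, Chchd1, Aurkaip1 and Gadd45gip1) or for 22 mitochondrial aminoacyl-tRNA synthetases. Genes outside the Mrpl and Mrps family were called at a share of 4.01% by at least 1 list. Groups of 5 and 22 genes may therefore hold no call without differing from them, and this was not tested. Of 13 translation factors, 1 (7.69%, against 2.16%) was called in both normal lists, Taco1, an activator of COX1 translation (fold enrichment 10.6 and 9.60, neither starved list). Of 27 genes of ribosome assembly and rRNA modification, 4 (14.8%, against 2.16% of the genes outside the Mrpl and Mrps family) were called in both normal lists and 2 (7.41%, against 1.77%) in both starved lists. The highest values were those of Rpusd4, a pseudouridine synthase of the large rRNA (26.2, 30.8, 16.7 and 20.6 in the order of the lists), whose region is shared with Fam118b. Trub2, another mitochondrial pseudouridine synthase, had 8.19, 7.53, 9.65 and 11.9 and shares its region with Coq4. Mtg1, a GTPase of large-subunit assembly (6.94 and 7.62), and Ybey (5.02 in both, shared with Mcm3ap) were called in the normal lists alone. Of 6 genes of mitochondrial transcription and mRNA stability, Lrpprc was called in all 4 lists (7.56, 9.46, 8.44 and 7.61). That is 16.7% of this list, against 1.12%, but lists this short change their share by much with a single gene.

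Of 77 genes of cytosolic ribosomal proteins, which build the ribosomes outside the mitochondria, 1 (1.30%) was called in both normal lists, 1 (1.30%) in both starved lists, 0 in all 4 and 5 (6.49%) in any list. The shares over genes outside the Mrpl and Mrps family were 2.16%, 1.77%, 1.12% and 4.01%, so the cytosolic share was below them for the first 3 rules and above for any list. The counts for the 78 mitochondrial ones were 8, 4, 3 and 12. This difference was not tested, because the mitochondrial genes were selected with their calls known. The cytosolic gene in both normal lists was Rps28 (6.17 and 4.63, and 4.93 in starved 2), in a region shared with Ndufa7. Rpl23 was called in both starved lists (6.69 and 5.73), and Rps18 in normal 2 (5.39) and starved 1 (6.97), shared with Vps52.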

How the data were processed

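USF2 ChIP-seq of 4 of the 12 samples was used; input and H3K27ac libraries were not analysed here. Per the submitters' processing notes the authors used MACS2 2.2.7.1, deepTools 3.5.1 and Bowtie2 2.5.1 with build GRCm38; parameters and controls are not given in the sources used here. Each library has its own deposited peak list. Per the file layout the deposited columns are a score (the whole-number part of −log10 q times 10), a fold enrichment (ratio), −log10 p and −log10 q, and the summit. Only peaks on assembled nuclear chromosomes were used, and summits were counted from 1. With several peaks at a gene, the one of highest −log10 q was used. Reads at a summit and background were recovered as the whole number whose Poisson tail fits fold and p (misfit at most 0.000265 in −log10 p; on 2000 simulated peaks the true number came back for 100%). The lowest background was divided by the narrowest peak width for a density. Calling was tested on simulated summits at 200 of 21887 genes, and all 200 calls were right. Start sites and promoters came from RefSeq (GRCm38.p6; 17492 protein-coding genes). Genes were named by a fixed rule: every called gene, every uncalled gene with a summit up to 5000 bp from an end, their neighbours within 1000 bp, and listed pathway genes called in at least 2 lists. Outside it, Mrps36 and the ribosomal proteins with other names are named for what they are, and Mrpl37 for an E-box, chosen after its values were seen. The genes and lists were chosen with earlier results of these data known. Tools were Python 3.11.15 with pandas 2.3.3, numpy 2.4.6, scipy 1.17.1 and matplotlib 3.10.9. Alternatives covered the window, peak threshold, list length, overlap, start sites and single replicates.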

Additional observations from a re-analysis of the deposited data

How the results depend on the processing

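Over 52 alternatives of the 4 counts (both normal, both starved, all 4 or any list), 48 stayed within 1.5 times the reported count. In all 50 that have a share of other genes beside them, the share of the family was above it. The family was chosen by its share of calls in these same lists, and the alternatives re-use those lists. This tally therefore describes the counts and is no independent check of the higher share. The count in both normal lists (8 as reported) was 5 with −log10 q of at least 5, 5 with each list limited to its 825 best peaks, and 4 where no other gene end was nearer to the summit (added after the data were seen). The count in both starved lists (4) was 2 with a window of 500 bp, which leaves out Mrps31 and Mrpl1, whose start sites lie inside the annotated span. Leaving out 1 replicate gave 8 to 12 for both normal lists, 4 to 6 for both starved, 3 to 4 for all 4 and 10 to 12 for any list, since the remaining list then decides for its condition. Without genes whose 2 peaks share an edge, 7 and 3 remained in both normal and both starved lists. With only genes called at least once as the base, 66.7% of the family and 53.9% of other genes were called in both normal lists. No paired analysis was possible because these results are counts of called genes and come from no test that could hold a block; the labels number the libraries 1 and 2 in both conditions without saying that a number marks a shared culture or day. Summits rested on 5 to 26 reads, which limits the precision of each fold enrichment.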

Other observations

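The 3 uncalled genes with CACGTG in their promoter entry were Mrpl37 (first letter 162 bases before the start), Mrpl20 (33 bases before) and Mrpl36 (43 bases before), and the first 2 had no summit at their start site in any list.

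Among peaks of other genes with a summit inside a promoter entry, those with CACGTG within 50 bp had median fold enrichments of 8.23, 8.53, 7.39 and 7.48 in normal 1, normal 2, starved 1 and starved 2, and those without it 6.88, 6.94, 6.18 and 6.43. The peaks of the family without it had medians of 6.17 (5 peaks), 5.93 (6), 6.89 (3) and 8.79 (4). The highest of them were Mrpl3 in the normal lists (9.25 and 10.8) and Mrps31 in the starved lists (11.7 and 11.1). Other peaks without a near E-box inside a promoter entry reached 19.8, 20.6, 16.1 and 14.9. Peaks of this size without the motif in the bases read therefore also occur outside the family.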
